A study of Mus musculus with 7 samples.

Results

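The genes described here are 10 named members of the antioxidant and haem response that the transcription factors NRF2 and BACH1 govern in opposite directions. They were taken by symbol from a fixed list, which was chosen with earlier results of these data known. They are 10 of the 39017 genes counted in each library. Fetal liver at stage E12.5, from mice on a C57BL/6 background, was profiled by RNA sequencing in 7 libraries made from single-cell suspensions of the organ. TAF10 is a subunit of the general transcription factor TFIID and of the SAGA coactivator complex, and it was deleted with EpoR-Cre, a recombinase expressed under control of the erythropoietin receptor locus and active in erythroid cells. The 2 TAF10KO libraries are titled lox/lox with the Cre, although the series text gives this genotype as 1 floxed and 1 knockout allele. The 3 TAF10HET libraries also carry the Cre, with a floxed allele beside the wild-type one in replicate 1 and a knockout allele beside it in replicates 2 and 3. The 2 WT libraries are lox/lox without the Cre, so their comparison with the other groups also compares Cre carriers with non-carriers. The titles hold 2 date codes whose meaning is not stated. TAF10KO 1, TAF10HET 1 and WT 1 have the first, and TAF10KO 2, TAF10HET 2, TAF10HET 3 and WT 2 the second, so the kind of heterozygous allele and the date code cannot be told apart.

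NRF2, encoded by Nfe2l2, pairs with small MAF proteins and activates genes through the antioxidant response element in their promoters and enhancers. KEAP1 is a cysteine-rich sensor that hands NRF2 to a cullin ubiquitin ligase for degradation until electrophiles or oxidants modify it, so much of the control of NRF2 acts on the protein and is not visible in RNA. BACH1 occupies the same elements with the same small MAF partners as a repressor, and haem binds BACH1, releases it from DNA and marks it for destruction. The pathway is known in erythroid cells, which handle large amounts of haem, iron and oxygen and load themselves with antioxidant enzymes while they make haemoglobin.

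RefSeq promoter sequences (build GRCm38.p6, 250 bases before to 50 after a transcript start) were matched by symbol for 8 of the 10 members, in 10 windows. Hmox1 and Gclc were without an entry. The antioxidant response element was searched on both strands as TGACNNNGC, which 12.4% of 32851 windows of the same length held, and as TGAGNNNGC, which 17.6% held. Either form was present in 27.8% of all windows. The related AP-1 and MAF core TGAGTCA, whose matches can overlap the element, was found in 5.2%. Positions are counted from 1 at the first base of the RefSeq transcript, with −1 just before it. Srxn1 held 3 matches to the element, at −158 to −150, −45 to −37 and 29 to 37, of which the middle one contains TGAGTCA. Prdx1 held 2, at −133 to −125 and 16 to 24, of which the former also contains TGAGTCA. Gclm held 1 at −134 to −126, Nfe2l2 held 1 at −240 to −232 and Txnrd1 held 1 at −92 to −84 of the second of its 3 windows. The windows of Keap1, Bach1 and Nqo1 had no match, which says only that these letters are not in those windows. The windows of 4 members are shown up to the earliest annotated start, 5′ to 3′ on the gene's strand, with matches to either form of the element in capitals: Srxn1, the member with the widest spread between libraries (chr2:152105274-152105515, plus strand), Gclm (chr3:122245307-122245486, plus strand), Prdx1 (chr4:116685349-116685543, plus strand) and Nqo1 (chr8:107403207-107403455, minus strand), a classical target whose window here lacks the letters.
Srxn1: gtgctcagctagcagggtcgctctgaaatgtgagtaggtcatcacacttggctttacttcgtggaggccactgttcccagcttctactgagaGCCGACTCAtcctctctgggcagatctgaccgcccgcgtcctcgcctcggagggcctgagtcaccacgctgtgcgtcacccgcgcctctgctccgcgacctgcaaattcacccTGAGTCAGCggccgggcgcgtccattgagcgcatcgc
Gclm: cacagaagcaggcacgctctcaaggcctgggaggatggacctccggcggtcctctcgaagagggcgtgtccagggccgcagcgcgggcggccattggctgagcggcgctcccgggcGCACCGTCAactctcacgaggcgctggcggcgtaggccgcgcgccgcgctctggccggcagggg
Prdx1: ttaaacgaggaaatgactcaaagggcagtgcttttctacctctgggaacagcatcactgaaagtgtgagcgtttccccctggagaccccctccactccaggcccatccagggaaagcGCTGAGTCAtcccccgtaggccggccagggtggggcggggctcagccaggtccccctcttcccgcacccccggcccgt
Nqo1: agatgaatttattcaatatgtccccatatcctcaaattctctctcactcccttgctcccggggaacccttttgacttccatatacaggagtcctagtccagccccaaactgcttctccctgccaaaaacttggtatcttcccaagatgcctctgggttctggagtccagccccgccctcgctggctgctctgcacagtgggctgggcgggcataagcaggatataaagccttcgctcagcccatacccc

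Libraries held 18008391 to 43401474 counts assigned to genes, and all 10 members passed the filter on low counts with 15800 genes tested. Taf10 itself was at 37.8 and 43.8 CPM (counts scaled to a common library size) in TAF10KO 1 and 2, at 78.1, 63.7 and 63 in TAF10HET 1 to 3, and at 72 and 96.5 in WT 1 and 2. Its difference between TAF10KO and WT was −1.04 on the log2 scale (SE 0.17) with an adjusted p of 0.0542 (edgeR). Libraries separated first by date code, along a principal component that held 63.2% of the variance. Markers of other cells moved with the date code: 8 of 8 mesenchymal markers and 8 of 8 endothelial markers were lower on the second date code and 9 of 10 erythroblast markers higher, all past the test, and their part in the results below was not tested. In RNA from a whole organ, fewer cells of a type and less RNA per cell cannot be told apart. Nothing in the labels says whether libraries are separate litters, and p-values measure only the spread between these libraries.

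Per kilobase of exon, which allows levels of different genes to be compared, the members ranked from Prdx1 to Keap1 over a wide span. Prdx1, a peroxiredoxin that reduces hydrogen peroxide, had a mean of 137 CPM per kilobase over the 7 libraries (SD 17.5, from 118 to 168), and its lowest library stood above the highest of every other member. Gclm (58.5, SD 13.4) and Hmox1 (57.3, SD 11.6) did not differ beyond their spread, and Gclc (42.2, SD 10.1) overlapped both. Txnrd1 (30.1, SD 4.68) and Nfe2l2 (25.7, SD 4.19) also overlapped each other. Srxn1 (19.3, SD 7.11), Nqo1 (14.4, SD 3.35), Bach1 (13.3, SD 1.38) and Keap1 (10.7, SD 1.43) formed the low end, with overlapping ranges between neighbours. Among the members the repressor Bach1 was the steadiest, with a highest library 1.35 times its lowest, and Srxn1 the most variable, at 2.49 times.

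**Figure D1:**
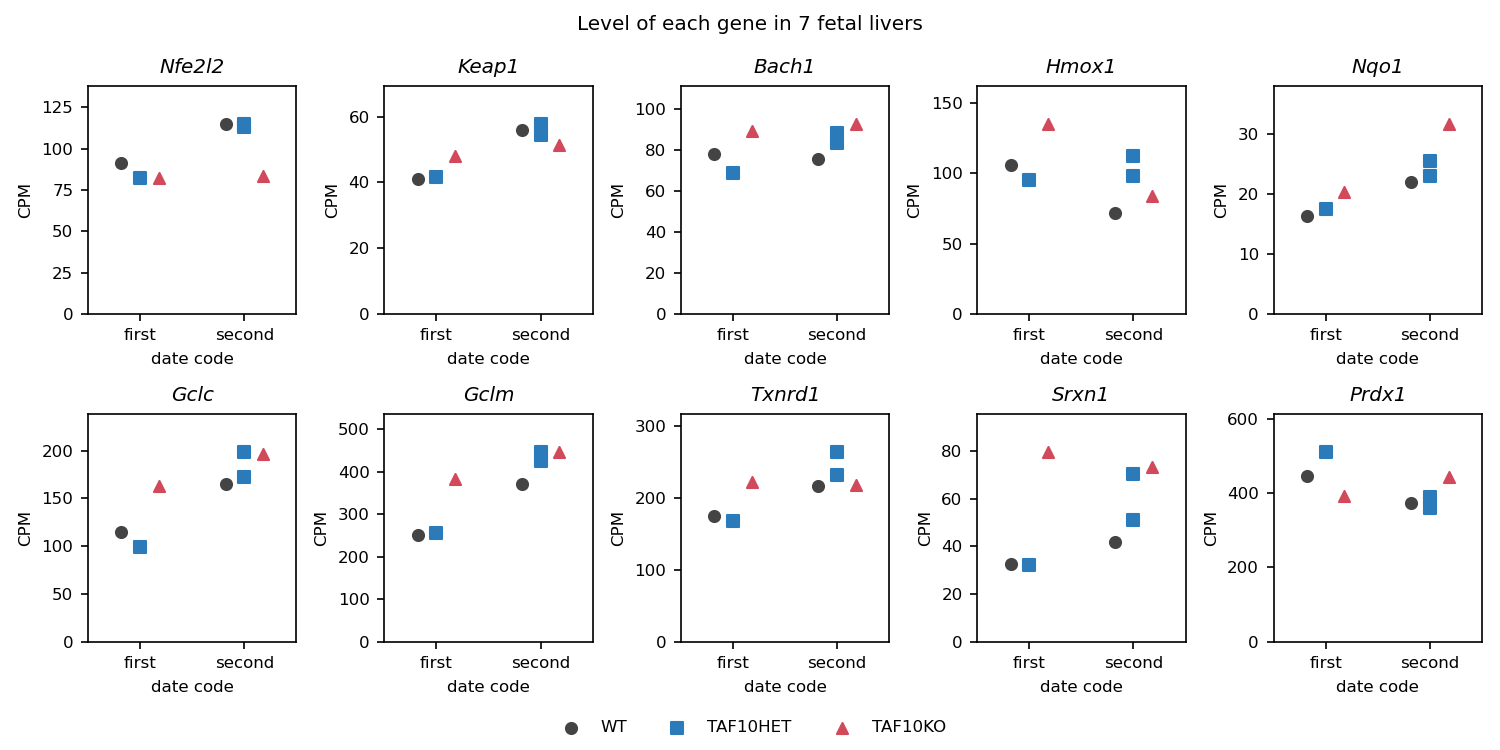
Level of each of the 10 members in every library, in CPM on a linear axis from 0 (1 point per library, arranged by date code and coloured by genotype). Srxn1 in the TAF10KO libraries (79.7 and 73.3 CPM) lies above all other libraries, while Nfe2l2 in the same libraries (82.2 and 83.7 CPM) lies below both WT libraries.

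The loss of TAF10 was set against Cre-negative controls to ask which genes depend on it in the fetal liver. In TAF10KO against WT, 9 of 10 members were estimated higher and 1, the activator Nfe2l2, lower, by amounts that did not pass the adjusted test. The counts were the same, 9 and 1, in TAF10HET against WT, which shares the WT libraries. No share of all genes is given beside these counts. The most abundant member, Prdx1, was estimated at only 0.05 on the log2 scale. After adjustment for date code, 0 of 10 members were called at an adjusted p under 0.05 by edgeR's quasi-likelihood test, where 0.608% of all genes tested were called (96 of 15800). At an unadjusted p under 0.05 there were 5 members, Nfe2l2, Nqo1, Gclc, Gclm and Srxn1, beside 17.9% of all genes. TAF10KO lay above WT without overlap in 4 members, Bach1, Gclm, Txnrd1 and Srxn1 (15.2% of all genes did), and below it in 1, Nfe2l2 (14.5%). DESeq2 called 2, Srxn1 (adjusted p = 0.000869) and Gclm (adjusted p = 0.0394), beside 3.68% of all genes. The median over members was 0.26 on the log2 scale, against 0.03 over all genes tested. On both date codes 7 members were higher in TAF10KO than in WT (33.7% of all genes were), 1 was lower on both (29.8% of all genes) and 2 changed sign.

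Of the 3 regulators, Nfe2l2 (chr2:75675513-75704641, minus strand, mm10) was the only member estimated lower. TAF10KO 1 and 2 held 82.2 and 83.7 CPM, TAF10HET 1 to 3 held 82.5, 115 and 113, and WT 1 and 2 held 91.2 and 115. Both TAF10KO libraries stood below both WT libraries, and the log2 difference was −0.30 (SE 0.11, 95% interval −0.56 to −0.04), with an edgeR adjusted p of 0.233. It was −0.15 within the first date code and −0.46 within the second. Without TAF10KO 1 it was −0.49, and without TAF10KO 2 it was −0.15. Bach1, the haem-sensitive repressor (chr16:87698945-87733346, plus strand), went the other way. Its levels were 88.9 and 92.5 CPM in TAF10KO, 68.6, 88.1 and 83.3 in TAF10HET, and 78 and 75.4 in WT. TAF10KO lay above WT without overlap, by 0.24 (SE 0.10, 95% interval 0.00 to 0.48, edgeR adjusted p = 0.286). Keap1 (chr9:21229730-21239361, minus strand) had 48 and 51.5 CPM in TAF10KO, 41.7, 54.4 and 57.8 in TAF10HET, and 41 and 56 in WT. The groups overlapped entirely, and the interval of its difference reached from −0.19 to 0.30. An antisense gene shares 510 of the 4693 exon bases of Keap1, and with no strand setting known its reads and those of Keap1 cannot be told apart. That gene was credited with 454 counts over all libraries against 9541 for Keap1.

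Srxn1, which encodes sulfiredoxin, the enzyme that restores overoxidised peroxiredoxins (chr2:152105516-152111376, plus strand), had the largest difference among the 10 members. It was at 79.7 and 73.3 CPM in TAF10KO 1 and 2, at 32, 51 and 70.4 in TAF10HET 1 to 3, and at 32.4 and 41.8 in WT 1 and 2. Means were 76.5 ± 4.53 CPM (SD, n = 2) in TAF10KO, 51.1 ± 19.2 (SD, n = 3) in TAF10HET and 37.1 ± 6.59 (SD, n = 2) in WT. Both TAF10KO libraries exceeded every other library, and the heterozygous libraries ranged from the WT level to just under the TAF10KO level. The difference from WT was 2.11-fold, or 1.08 on the log2 scale (SE 0.27, 95% interval 0.40 to 1.75), with an edgeR adjusted p of 0.146. It was 1.30 within the first date code and 0.81 within the second, and it was 0.66 without TAF10KO 1 and 1.41 without TAF10KO 2, with edgeR adjusted p-values of 0.272 and 0.0921. It passed the test in a fit on the TAF10KO and WT libraries alone (edgeR adjusted p = 0.000204) and without TAF10HET 1 (edgeR adjusted p = 0.0329). The former fit rests on 2 libraries per group. These fits called 553 and 887 of all genes, against 96 in the reported fit. Of the 3 element matches in its promoter window, the sequence printed above shows the 2 before the start.

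Glutathione synthesis depends on glutamate-cysteine ligase, whose catalytic subunit is encoded by Gclc (chr9:77754535-77794485, plus strand) and whose modifier subunit is encoded by Gclm (chr3:122245557-122270732, plus strand). Gclm was at 382 and 447 CPM in TAF10KO, at 255, 426 and 447 in TAF10HET, and at 251 and 371 in WT. TAF10KO stood above WT without overlap and overlapped TAF10HET, with means of 414 ± 45.8 CPM (SD, n = 2) and 311 ± 84.6 (SD, n = 2) in TAF10KO and WT. The log2 difference was 0.44 (SE 0.14, 95% interval 0.13 to 0.76, edgeR adjusted p = 0.169). Without TAF10HET 1 its adjusted p was 0.0337 (edgeR), in a fit that called 887 of all genes. Without TAF10KO 2 the difference was 0.63, and without TAF10KO 1 it was 0.21. Gclc was at 163 and 197 CPM in TAF10KO, at 99.6, 173 and 199 in TAF10HET, and at 115 and 165 in WT. Its groups overlapped narrowly, and the difference of 0.39 (SE 0.15, 95% interval 0.03 to 0.75) had an edgeR adjusted p of 0.252, and was 0.15 without TAF10KO 1 (edgeR adjusted p = 0.539). For both subunits the estimate was larger on the first date code (0.60 for Gclm and 0.50 for Gclc) than on the second (0.27 and 0.26), and the change between dates was not past the test. Gclm overlaps an opposite-strand gene over 296 of its 6291 exon bases, to which 450 counts were assigned in all, against 71955 for Gclm.

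Nqo1, which encodes a quinone reductase (chr8:107388225-107403206, minus strand), was at 20.4 and 31.7 CPM in TAF10KO, at 17.5, 23 and 25.6 in TAF10HET, and at 16.4 and 22 in WT. TAF10KO and WT overlapped when date codes were pooled, but TAF10KO was the higher on each date code, by 0.32 and 0.53. The adjusted difference was 0.43 (SE 0.11, 95% interval 0.18 to 0.67, edgeR adjusted p = 0.121), and without TAF10KO 1 it was 0.52. Over all left-out libraries it ranged from 0.30 to 0.52, with edgeR adjusted p-values of up to 0.828. Txnrd1, the cytosolic thioredoxin reductase (chr10:82833951-82897712, plus strand), was at 222 and 218 CPM in TAF10KO, at 167, 232 and 264 in TAF10HET, and at 175 and 216 in WT. TAF10KO 2 exceeded WT 2 by very little, and the difference was 0.19 (SE 0.15, 95% interval −0.15 to 0.53). Prdx1 (chr4:116685544-116700822, plus strand) was at 393 and 444 CPM in TAF10KO, at 511, 359.8 and 389 in TAF10HET, and at 445 and 373 in WT. Its groups overlapped and the estimate of 0.05 had an interval from −0.30 to 0.40. Prdx1 has 3 pseudogenes with similar transcripts, which were given 9 counts in all against 79874 for the gene.

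Hmox1 encodes haem oxygenase 1, which opens the haem ring to give biliverdin, iron and carbon monoxide, and it is the best-known BACH1 target (chr8:75093621-75100589, plus strand). It was at 135 and 83.9 CPM in TAF10KO 1 and 2, at 95.5, 112 and 98.3 in TAF10HET 1 to 3, and at 106 and 71.8 in WT 1 and 2. The highest and the second lowest library were both TAF10KO, so the groups overlapped. The difference from WT was 0.29 (SE 0.20, 95% interval −0.19 to 0.77, edgeR adjusted p = 0.488), at 0.35 on the first date code and 0.23 on the second. An increase of up to 0.77 or a decrease of up to 0.19 on the log2 scale lies within that interval.

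**Figure D2:**
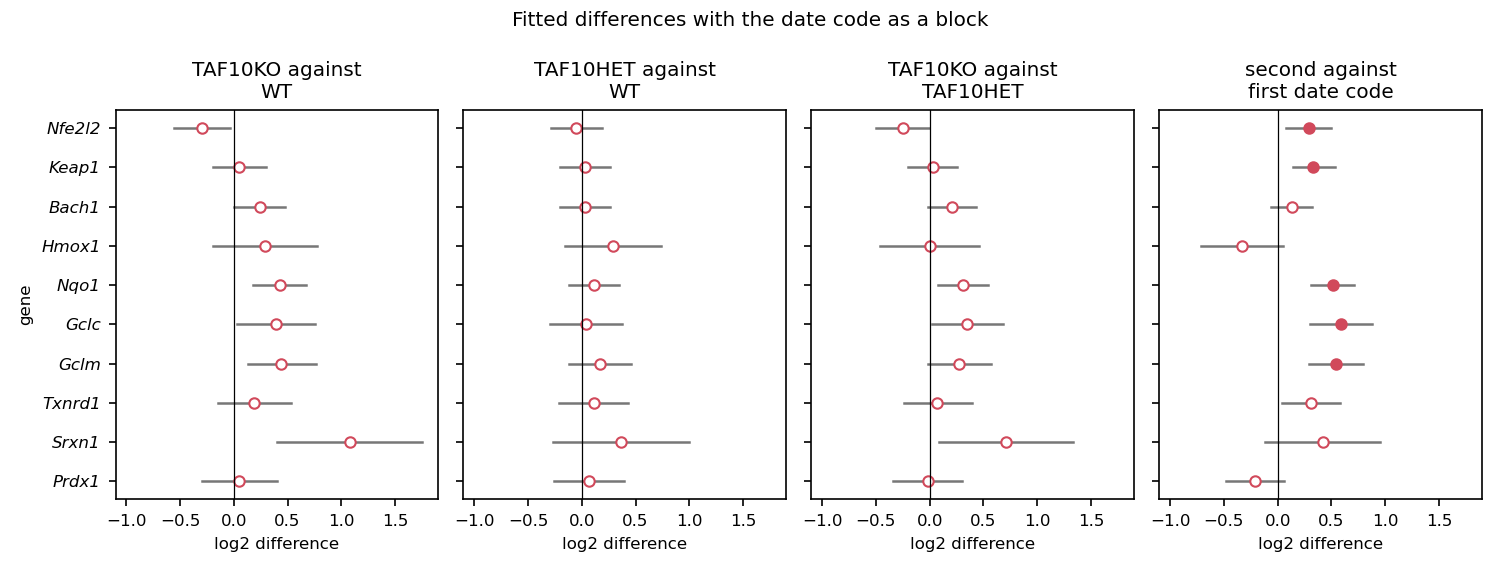
Log2 difference of each member in 4 comparisons with its 95% interval (points, filled where the adjusted p is under 0.05). In TAF10KO against WT no point is filled and Srxn1 lies farthest from 0 at 1.08, and by date code 5 members are filled.

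Levels of other cell types' markers stood beside these differences. In TAF10KO against WT, 10 of 10 erythroblast markers were estimated lower (median −0.30, with 1 past the test) and 9 of 10 macrophage markers were (median −0.43, with 0 past the test). Summed erythroblast markers ranged from 8535 to 10114 CPM in TAF10KO and from 10557 to 14324 in WT. Summed macrophage markers ranged from 160.3 to 284 CPM in TAF10KO and from 211 to 358 in WT. Neutrophil and myeloid precursor markers were estimated higher in 8 of 8 (median 0.68, with 0 past the test), with sums of 396 to 709.7 CPM against 317 to 429.6. Endothelial markers were estimated higher in 7 of 8 (median 0.49, with 2 past the test), with sums of 216 to 471 CPM against 169 to 351. Mesenchymal markers were estimated higher in 8 of 8 (median 0.57, with 0 past the test), with sums of 339 to 1613 CPM against 189.7 to 1376. Hepatocyte markers had a median of −0.24 and sums of 12617 to 20146 CPM against 16398 to 19795, and megakaryocyte markers a median of 0.23 and sums of 498 to 666 CPM against 469 to 513. Of 4 mast cell markers 1 was abundant enough to test. No marker of any list was at 0 in all libraries, and the part of these cells in the members' differences was not tested.

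Beyond the 10 members, edgeR called 3 other genes of the wider pathway higher in TAF10KO against WT. Slc7a11, the cystine carrier that supplies cysteine for glutathione, was at 5.57 and 12.6 CPM in TAF10KO 1 and 2, at 1.34, 1.74 and 2.05 in TAF10HET 1 to 3, and at 1.68 and 2.32 in WT 1 and 2. Every other library was well under both TAF10KO libraries, and the rise was 4.3-fold (log2 2.10, SE 0.24, edgeR adjusted p = 0.0204). Sqstm1, which encodes p62, an autophagy receptor that binds KEAP1, was at 154 and 181 CPM in TAF10KO, at 117, 138 and 134 in TAF10HET, and at 110.4 and 120.3 in WT. It rose by 0.53 on the log2 scale (SE 0.08, edgeR adjusted p = 0.0438). Ftl1, the ferritin light chain that stores iron, was at 2326 and 3489 CPM in TAF10KO, at 1253, 2078 and 2454 in TAF10HET, and at 1222 and 1616 in WT, a rise of 1.01 (SE 0.14, edgeR adjusted p = 0.041). Ferritin light chain has processed pseudogenes, and its value is uncertain where reads could be split among copies. All 3 calls were lost without either WT library: without WT 1 the adjusted p-values of Slc7a11, Sqstm1 and Ftl1 were 0.255, 0.356 and 0.322, without WT 2 they were 0.551, 0.752 and 0.75, and without TAF10HET 3 they were 0.0946, 0.15 and 0.103 (edgeR). Without TAF10HET 2, Sqstm1 (0.0994) and Ftl1 (0.0796) were also no longer called in edgeR, with non-robust dispersions Sqstm1 (0.0502) and Ftl1 (0.055) were not, and with no date block none of the 3 was (0.88, 0.988 and 1 for Slc7a11, Sqstm1 and Ftl1 in the order given).

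By function, the wider lists held few edgeR calls in that comparison, where 0.608% of all genes were called. Of 13 partners and regulators of NRF2, 1 rose and 0 fell (Sqstm1, list median −0.02), of 14 glutathione genes 1 rose and 0 fell (Slc7a11, median 0.15), and of 9 genes for haem breakdown, haem export and ferritin 1 rose and 0 fell (Ftl1, median −0.01). By edgeR no gene was called in either direction among 13 thioredoxin and peroxiredoxin genes (median 0.03) and 6 NADPH supply genes (0.09). None was among 8 quinone and carbonyl detoxification genes (0.17) and 4 genes for superoxide and peroxide removal (0.11), beside a median of 0.03 over all genes. Outside the members, the gene with the highest CPM in each of those 4 lists, not scaled by length, was Prdx2, an abundant peroxiredoxin of red cells, at −0.25 (SE 0.09, edgeR adjusted p = 0.224), Tkt, a transketolase, at 0.11 (edgeR adjusted p = 0.613), Aldh2, an aldehyde dehydrogenase, at 0.25 (edgeR adjusted p = 0.304), and Sod1, the cytosolic superoxide dismutase, at −0.11 (edgeR adjusted p = 0.584). DESeq2 called Prdx2 lower (adjusted p = 0.031) and did not call Tkt, Aldh2 or Sod1. It also called genes named here after their values were seen, beside 3.68% of all genes. Higher by DESeq2 were Me1 of the NADPH list (1.08, adjusted p = 0.00291) and Osgin1 of the quinone list (0.83, adjusted p = 0.00212). So were Abcc1 (0.69, adjusted p = 0.000338), Gstm1 (0.43, adjusted p = 0.0178) and Mafg (0.43, adjusted p = 0.00755). Gpx1 was lower (−0.38, DESeq2 adjusted p = 0.038). The lists share Gclc, Gclm, Txnrd1, Srxn1, Prdx1, Nqo1 and Hmox1 with the members.

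Heterozygotes were compared with the Cre-negative WT libraries, a comparison that shares its WT libraries with the preceding one. Here 0 of 10 members were called by edgeR, where 0.00633% of all genes were (1 of 15800), 0 members had an unadjusted p under 0.05 (3.35% of all genes) and DESeq2 called 0 (0.057% of all genes). For every member the ranges of TAF10HET and WT overlapped, while 9.28% of all genes had ranges apart. The largest estimates were 0.36 for Srxn1 (95% interval −0.27 to 1.0) and 0.29 for Hmox1 (95% interval −0.16 to 0.74), and the median over members was 0.09 against 0.01 over all genes. Nfe2l2 was at −0.05, Keap1 at 0.03, Bach1 at 0.03, Nqo1 at 0.11, Gclc at 0.04, Gclm at 0.17, Txnrd1 at 0.11 and Prdx1 at 0.07. As in TAF10KO against WT, 9 of 10 members were estimated higher and 1, Nfe2l2, lower. Between the first and second date codes, where the heterozygous allele also differs, Srxn1 went from −0.02 to 0.52 and Hmox1 from −0.15 to 0.55. The median over members went from −0.05 to 0.17. On both date codes 2 members, Nqo1 and Gclm, were higher and 1, Nfe2l2, was lower, and 7 were neither. The share of all genes is not given for these counts, which are a description only. No gene of the 7 wider lists was called. Their genes with the highest CPM outside the members, not scaled by length, were Nfe2 at 0.12, Gpx1 at 0.00, Prdx2 at 0.10, Tkt at −0.05, Aldh2 at −0.05, Ftl1 at 0.30 and Sod1 at −0.12 on the log2 scale.

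TAF10KO was also set against TAF10HET, where both groups carry the Cre. By edgeR 0 of 10 members were called, beside 1.61% of all genes (254 of 15800). At an unadjusted p under 0.05 there were 4 members, Nfe2l2, Nqo1, Gclc and Srxn1, beside 17.1% of all genes, and DESeq2 called 1, Srxn1 (adjusted p = 0.0343), beside 4.37%. Srxn1 was 0.71 higher in TAF10KO on the log2 scale (SE 0.25, 95% interval 0.09 to 1.33, edgeR adjusted p = 0.24), with no overlap of the ranges. Bach1 was also without overlap, at 0.21, and 10.3% of all genes had TAF10KO above TAF10HET without overlap. The other estimates were −0.25 for Nfe2l2, 0.03 for Keap1, 0.00 for Hmox1 (95% interval −0.46 to 0.46), 0.31 for Nqo1, 0.35 for Gclc, 0.27 for Gclm, 0.07 for Txnrd1 and −0.02 for Prdx1. Estimates depended on which TAF10KO library was left out, given here without TAF10KO 1 and then without TAF10KO 2. They were 0.07 and 0.49 for Gclm, −0.42 and −0.08 for Nfe2l2, 0.15 and 0.57 for Gclc, and 0.36 and 1.11 for Srxn1. Nqo1 was at 0.40 and 0.18 and Bach1 at 0.17 and 0.23. The sign turned for Keap1 (−0.12 and 0.18), Hmox1 (−0.23 and 0.25), Txnrd1 (−0.14 and 0.30) and Prdx1 (0.22 and −0.36). In the wider lists, Slc7a11 rose 5.55-fold (log2 2.47, edgeR adjusted p = 0.00463), Gstm1, a glutathione transferase, rose by 0.57 (edgeR adjusted p = 0.0263), Ftl1 rose by 0.72 (edgeR adjusted p = 0.0484) and Sqstm1 rose by 0.40 (edgeR adjusted p = 0.0446). Gstm1 was at 132 and 144 CPM in TAF10KO, at 98.9, 86.7 and 91 in TAF10HET, and at 105 and 98.6 in WT. Counts by edgeR were 1 of 13 higher for partners and regulators, 3 of 14 for glutathione and 1 of 9 for haem and ferritin. In edgeR 0 genes were called lower in any list and 0 were called in the other 4. DESeq2 did call Prdx2, of the thioredoxin and peroxiredoxin list, in the lower direction, at −0.36 (adjusted p = 5.86e-05). The third glutathione gene was Abcc1, a glutathione-conjugate exporter named here after its values were seen, which rose by 0.56 (edgeR adjusted p = 0.0492). With 1 library left out, the highest adjusted p was 0.0573 for Slc7a11, 0.152 for Gstm1, 0.156 for Ftl1, 0.17 for Abcc1 and 0.218 for Sqstm1 (edgeR). A fit on the TAF10KO and TAF10HET libraries alone also ended the calls of Gstm1 (0.116), Ftl1 (0.14) and Sqstm1 (0.154), and non-robust dispersions that of Ftl1 (0.0642, all edgeR). Erythroblast markers were estimated lower in TAF10KO than in TAF10HET in 10 of 10 (median −0.35, with 1 past the test) and macrophage markers in 10 of 10 (median −0.56, with 1 past the test). Neutrophil and myeloid precursor markers were estimated higher in 8 of 8 (median 0.77, with 2 past the test, sums of 396 to 709.7 CPM against 267 to 459), and endothelial markers in 7 of 8 (median 0.48, with 3 past the test, sums of 216 to 471 CPM against 172 to 324). Hepatocyte, mesenchymal and megakaryocyte markers had medians of 0.01, 0.03 and 0.22, with 0 past the test. The part of these cells in the differences was not tested.

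The difference between TAF10KO and TAF10HET was also estimated on each date code. These estimates rest on single libraries, 1 TAF10KO on each date code and 1 TAF10HET on the first, and the heterozygous allele cannot be told apart from the date code. A fit with a mean for each genotype and date code, added after the data were seen, took its spread from TAF10HET 2 and 3 alone, the most alike pair of libraries within a group, so that its p-values compare these libraries and not the conditions. It called 6 of 10 members, beside 15.4% of all genes (2427 of 15800). Hmox1 went from 0.50 on the first date code to −0.32 on the second, a change of −0.82 (edgeR adjusted p = 0.00476). Gclm went from 0.59 to 0.03 (change −0.55, edgeR adjusted p = 0.00571), Gclc from 0.71 to 0.09 (change −0.62, edgeR adjusted p = 0.0184) and Txnrd1 from 0.41 to −0.18 (change −0.59, edgeR adjusted p = 0.0163). Nfe2l2 went from 0.00 to −0.44 (change −0.44, edgeR adjusted p = 0.0205). Prdx1 moved in the opposite sense, from −0.38 to 0.25 (change 0.62, edgeR adjusted p = 0.00446). Of the remaining members, Srxn1 went from 1.32 to 0.29 (change −1.03, edgeR adjusted p = 0.264), and Keap1, Bach1 and Nqo1 changed by −0.32, −0.26 and 0.17 without passing. DESeq2 called 3 of the 6, Hmox1 (adjusted p = 0.0268), Gclm (adjusted p = 0.041) and Prdx1 (adjusted p = 0.00275), among 307 genes. Mesenchymal markers moved with this change, with a list median of −0.67 on the first date code and 0.56 on the second in TAF10KO against TAF10HET, and erythroblast markers had medians of −0.04 and −0.51; their part was not tested. The same test of TAF10KO against WT called 0 of 10 members, beside 1.15% of all genes, and that of TAF10HET against WT 0 of 10, beside 0.646%. In both, DESeq2 called 0 of 10.

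**Figure D3:**
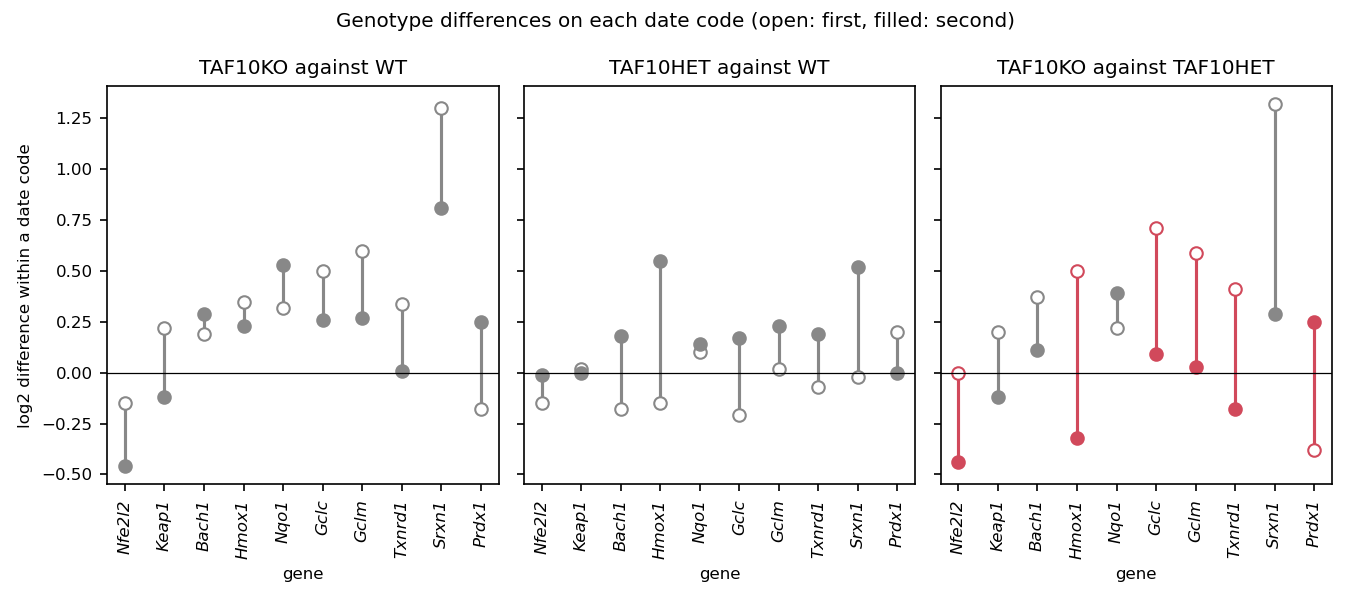
Log2 difference between genotypes within the first (open) and the second (filled) date code for each member, red where the change between date codes passed the test. In TAF10KO against TAF10HET the 6 red members are Nfe2l2, Hmox1, Gclc, Gclm, Txnrd1 and Prdx1, and Hmox1 runs from 0.50 to −0.32.

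More members were called by date code than by genotype, as were more of all genes. On the second date code 5 of 10 members were called, all of them higher, beside 41.4% of all genes called (6536 of 15800), of which 18.7% of genes tested were higher and 22.7% lower. Gclc rose by 0.59 (SE 0.12, edgeR adjusted p = 0.00842), Gclm by 0.54 (SE 0.11, edgeR adjusted p = 0.00666), Nqo1 by 0.51 (SE 0.08, edgeR adjusted p = 0.00333), Keap1 by 0.33 (SE 0.08, edgeR adjusted p = 0.0165) and Nfe2l2 by 0.29 (SE 0.09, edgeR adjusted p = 0.0339). For Keap1, Nqo1 and Gclc all 4 second-date libraries exceeded all 3 first-date libraries, as 18.8% of all genes did. Nqo1 was higher by 0.63 within TAF10KO, 0.47 within TAF10HET and 0.43 within WT. Gclc and Gclm differed more between dates within TAF10HET (0.89 and 0.78) than within TAF10KO (0.27 and 0.23) or WT (0.52 and 0.56). Not called were Txnrd1 at 0.31 (edgeR adjusted p = 0.067), Srxn1 at 0.42, Bach1 at 0.13, Prdx1 at −0.21 and Hmox1 at −0.33. Some of these were called in other fits: Hmox1 fell by 0.63 among the lox/lox libraries alone (edgeR adjusted p = 0.000418) and by 0.63 without TAF10HET 1 (edgeR adjusted p = 0.000842). These fits called 4311 and 5182 of all genes. Prdx1 fell by 0.40 without either TAF10KO library (edgeR adjusted p = 0.00214 without replicate 1 and 0.00222 without replicate 2). Txnrd1 rose by DESeq2 (adjusted p = 0.0211), with median-of-ratios factors (edgeR adjusted p = 0.0487) and without TAF10KO 1 or 2 (edgeR adjusted p = 0.00346 and 0.00338). Hmox1 was lower on the second date code within TAF10KO (−0.68) and WT (−0.56) but higher within TAF10HET (0.14).

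Of the 5 date calls, Nqo1 was called whichever library was left out. Gclc was no longer called without WT 2 (edgeR adjusted p = 0.0505), and Gclm without WT 1 (0.0548) or WT 2 (0.0576) in edgeR. Keap1 was not called without WT 1 (0.121), WT 2 (0.114), TAF10HET 1 (0.0583) or TAF10HET 3 (0.0529) in edgeR, and Nfe2l2 without WT 1 (0.164), WT 2 (0.159), TAF10HET 1 (0.156), TAF10HET 2 (0.0786) or TAF10HET 3 (0.0903) in edgeR. Nfe2l2 was also not called with upper-quartile factors (0.0742), a minimum of 5 CPM (0.0658) or no genotype term (0.0549) in edgeR. Among libraries with lox/lox alleles only, which leaves out the heterozygotes, Nfe2l2 differed between dates by 0.17 (edgeR adjusted p = 0.242). Keap1 had an edgeR adjusted p of 0.0826 there, while Nqo1, Gclc and Gclm were called higher and Hmox1 lower. That fit called 4311 of all genes. Summed erythroblast markers were 8535 to 10557 CPM on the first date code and 10114 to 16156 on the second, summed hepatocyte markers 17789.9 to 20146 and 12617 to 16398, and summed mesenchymal markers 1376 to 2521 and 189.7 to 339. The part of those cells in the members' rise was not tested.

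Genes of the wider lists were called in both directions by date code, beside 41.4% of all genes called, 18.7% higher and 22.7% lower. Among partners and regulators 5 of 13 rose and 2 fell, among glutathione genes 5 of 14 rose and 1 fell, among thioredoxin and peroxiredoxin genes 5 of 13 rose and 1 fell, and among NADPH supply genes 4 of 6 rose and 1 fell. Quinone and carbonyl genes were even, with 2 of 8 higher and 2 lower, haem and ferritin genes were called in 4 of 9, all higher, and superoxide and peroxide genes were called in 4 of 4, with 3 higher and 1 lower. List medians were 0.19, 0.17, 0.24, 0.24, −0.07, 0.11 and 0.34 in that order, against 0.02 over all genes. Of the genes that rose, Fth1, the ferritin heavy chain, rose by 0.63 (edgeR adjusted p = 0.00199), Blvrb, biliverdin reductase B, by 0.59 (edgeR adjusted p = 0.00125), Tkt by 0.67 (edgeR adjusted p = 0.000965), Cat, the catalase gene, by 0.56 (edgeR adjusted p = 0.00295) and Gpx1, a glutathione peroxidase, by 0.48 (edgeR adjusted p = 0.00605). Prdx6, another peroxiredoxin, rose by 0.40 (edgeR adjusted p = 0.00243) and Cul3, the scaffold of the KEAP1 ligase, by 0.28 (edgeR adjusted p = 0.0159). Of those that fell, Sod3, the secreted superoxide dismutase, fell by 2.14 on the log2 scale (edgeR adjusted p = 0.000752). Sod3 was at 8.91, 4.09 and 4.52 CPM in the first-date libraries TAF10KO 1, TAF10HET 1 and WT 1, and at 1.24, 1.28, 1.06 and 1.35 in TAF10KO 2, TAF10HET 2, TAF10HET 3 and WT 2. Ephx1, an epoxide hydrolase, fell by 0.95 (edgeR adjusted p = 0.00888) and Bach2, the BACH1 relative, fell by 0.87 (edgeR adjusted p = 0.00312). Txnip, the thioredoxin-binding protein gene, fell by 0.59 (edgeR adjusted p = 0.00127), Idh1 by 0.56 (edgeR adjusted p = 0.000755), Gsta4 by 0.53 (edgeR adjusted p = 0.00516) and Nqo2 by 0.37 (edgeR adjusted p = 0.0078).

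After the date-code means were subtracted, likeness to Hmox1 was ranked over the 7 libraries by Pearson's r of log2 CPM, among the 9540 genes whose mean log2 CPM was 3 or more. The genes most like it were Parp14 (r = 0.996), Ogfod2 (0.985), Atp13a2 (0.98), 2510039O18Rik (0.979) and Arih1 (0.978), and none of them is a member. They are the highest of many genes over few libraries that share 2 date codes, and are given as a description. Among the members the values were 0.76 for Txnrd1, 0.726 for Gclm, 0.723 for Bach1, 0.621 for Gclc, 0.614 for Srxn1, 0.487 for Keap1, 0.209 for Nqo1 and 0.136 for Nfe2l2. Their ranks ran from 677 for Txnrd1 to 4472 for Nfe2l2 among the 9540 genes. Prdx1 was opposite in sign, at −0.607.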

How the data were processed

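Gene counts were deposited by the authors as 1 file per library, with 39017 genes and 5 summary lines. The submitters' processing notes name TopHat2 2.0.8, DESeq2 and build mm10. The counting program, annotation release and strand setting were not given in the sources used here. The summary lines were left out: reads outside genes came to 6.81 to 10.1%, ambiguous reads to 3.98 to 5.94% and reads without a unique position to 14.1 to 22.2%. Positions and exon lengths came from GENCODE M21, where 37693 genes matched and 1324, with 0.198% of counts, did not. Counts were tested with edgeR 4.0.16 (R 4.3.3): TMM factors, filterByExpr, robust quasi-likelihood F tests, a term for each genotype and for date code, all 7 libraries in a single fit, two-sided, Benjamini-Hochberg adjustment over 15800 genes. SE and 95% intervals were taken from the F statistic. CPM are TMM-scaled, and log2 CPM used a prior count of 2. DESeq2 1.42.0 was an alternative.

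Date code, which the titles give, was a block. Same-date libraries of different groups deviated together from their group means (r from 0.40 to 0.74 over 8 pairs, which are not independent because the deviations of a group sum to 0). The biological coefficient of variation was 13.4% with the block and 33.9% without. No libraries were copies of each other (chi-square per degree of freedom at least 16.82 within groups). The fit was also run on counts simulated from its own fitted means and dispersions, which cannot show whether the model suits the real counts. The members, lists and block were chosen with earlier results of these data known, and the test of change between date codes was added after the data were seen. Besides the members, the text names per list and comparison the 2 called genes with the smallest adjusted p or, with none called, the gene with the highest mean CPM, and the 5 genes most like Hmox1. Genes named after their values were seen are marked so in the text. For the lists without a call in TAF10KO against TAF10HET, the results of that comparison give only Prdx2.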

Additional observations from a re-analysis of the deposited data

Results flagged for a closer look

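For 6 members the estimates of TAF10KO against TAF10HET on the 2 date codes differed past the test in a fit whose spread came from TAF10HET 2 and 3 alone, the only libraries that share genotype and date code. On the log2 scale, second minus first, it was −0.82 for Hmox1 (edgeR adjusted p = 0.00476), −0.62 for Gclc (edgeR adjusted p = 0.0184), −0.59 for Txnrd1 (edgeR adjusted p = 0.0163), −0.55 for Gclm (edgeR adjusted p = 0.00571), −0.44 for Nfe2l2 (edgeR adjusted p = 0.0205) and 0.62 for Prdx1 (edgeR adjusted p = 0.00446). DESeq2 called 3 of the 6, Hmox1, Gclm and Prdx1. The share of all genes past the same test was 15.4%. Each date code has 1 TAF10KO library, the first has 1 TAF10HET library and the second 2, and the heterozygous allele changes with the date code, so date, allele and single library cannot be told apart.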

How the results depend on the processing

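With no filter on low counts, the members called were 5 in TAF10KO against WT, 1 in TAF10HET against WT, 3 in TAF10KO against TAF10HET and 9 by date code. In the same order, the genes called were 1399, 289, 1498 and 7305, against 96, 1, 254 and 6536 in the reported fit. The fit without the filter tested every gene with any count, a larger set than the reported fit. DESeq2 gave 2 members in TAF10KO against WT and 1 in TAF10KO against TAF10HET, with 581, 9 and 690 genes. Fits on only the groups compared gave 2 members in TAF10KO against WT and 553, 7 and 26 genes, and the date comparison on lox/lox libraries 4311 genes. Non-robust dispersions gave 53 genes in TAF10KO against WT and 0 in TAF10HET against WT, as did leaving out globin genes in the latter (0). Without the date block, 0 genes were called in any genotype comparison by edgeR, and unadjusted p under 0.05 took 729, 96 and 854 genes. For the change between date codes, DESeq2 called 3 members and 307, 29 and 44 genes in TAF10KO against TAF10HET, TAF10KO against WT and TAF10HET against WT, where edgeR called 2427, 181 and 102. With 1 library left out, the ranges were 0 to 2 members and 0 to 1282 genes (TAF10KO against WT), 0 to 0 members and 0 to 13 genes (TAF10HET against WT), 0 to 1 members and 16 to 1203 genes (TAF10KO against TAF10HET), and 1 to 7 members and 3206 to 7303 genes (date code). A left-out library can leave a group with 1 library, which is then assumed to vary like the others. The causes were not tested.

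Signs turned for small estimates. In TAF10KO against TAF10HET, Hmox1 was −0.01 with median-of-ratios factors, DESeq2 or a minimum of 5 CPM and 0.00 with upper-quartile factors, Prdx1 was 0.02 with no filter, and without the block Keap1 was −0.04, Txnrd1 0.00 and Sod1 −0.04. Without the block in TAF10HET against WT, Nfe2l2 was 0.00 and Tkt 0.06, and by date code Taf10 was −0.01 with upper-quartile factors. With 1 library left out, ranges in TAF10KO against WT were −0.11 to 0.18 for Keap1, −0.06 to 0.38 for Txnrd1, −0.27 to 0.31 for Prdx1 and −0.02 to 0.21 for Tkt. In TAF10HET against WT they were −0.08 to 0.06 for Nfe2l2, −0.05 to 0.12 for Keap1, −0.11 to 0.16 for Bach1, −0.06 to 0.23 for Gclc, −0.11 to 0.13 for Prdx1, −0.05 to 0.07 for Gpx1, −0.09 to 0.02 for Tkt and −0.12 to 0.03 for Aldh2. In TAF10KO against TAF10HET they were −0.12 to 0.18 for Keap1, −0.30 to 0.25 for Hmox1, −0.14 to 0.30 for Txnrd1, −0.36 to 0.22 for Prdx1 and −0.07 to 0.09 for Sod1, and by date code −0.11 to 0.32 for Taf10. Of single-gene values under the other settings, 656 kept direction and side of the threshold, 30 came past it and 21 fell short of it. No setting moved the median over all genes by more than 0.1.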
